A study of Mus musculus with 168 samples.

Results

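Mir615 is a mouse microRNA gene inside the Hoxc cluster of developmental genes, and its level is described here in the hippocampus of an Htt CAG knock-in allelic series. The gene was found as the 1 row, of 1626 transcripts in the deposited count table, whose Ensembl identifier (ENSMUST00000102056) carries the symbol Mir615 in the GENCODE M21 annotation. Mir615 was chosen on its measured values, namely the differences between Q175 and control mice and the change with CAG length in these same libraries, so its values by genotype are given as a description without a test. Tests of Mir615 are restricted to measures that played no part in that choice. These are sex, age outside Q175, and the variation among the Q175 libraries at 10 months.

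Small RNA libraries were made from the hippocampus of C57BL/6 mice aged 2, 6 or 10 months (2m, 6m and 10m). The heterozygous knock-in lines, 6 in number, carry 1 endogenous mouse Htt allele and 1 allele in which human HTT exon 1 with an engineered CAG repeat was inserted (Q20, Q80, Q92, Q111, Q140 and Q175, named by repeat length), and the wild type (WT) mice, with 7 repeats, are littermates of the Q20 line. Each of the 21 groups of genotype and age has 8 libraries, split evenly by sex other than Q80 at 2m (3 females and 5 males) and Q20 at 10m (5 and 3). Q20 and WT served as controls, and by the labels both were housed together, while every other line was kept with its own genotype. The study's methods instead describe cages shared by heterozygous and wild type mice, so how housing differed between the groups is not settled by these sources. The Q175 allele arose by spontaneous expansion within the Q140 line and is 1 line. Library totals ranged from 2117539 to 9099227 counts, with a median of 3374648, and no pair of libraries within a group agreed to within sampling noise. The neuronal microRNAs that mark brain tissue (the Mir124a, Mir128 and Mir138 genes) summed to at least 35369 CPM (counts divided by the normalised library size and scaled to the usual per-million unit) in every Q175 and control library at 10m. Since this is bulk tissue, a change in the number of cells that express a microRNA and a change in its amount per cell cannot be told apart.

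MicroRNAs are short RNAs cut by Drosha and Dicer from the arms of a hairpin transcript. Loaded into Argonaute, they pair through the seed (bases 2 to 8 from the 5′ end) with sites in messenger RNAs and lower the output of those messengers. Hox genes are transcription factor genes that set position along the body axis, including the hindbrain and spinal cord, and most are little used in the adult forebrain, where the hippocampus lies. Besides Mir615, the mouse Hox clusters hold the Mir10 genes, next to the Hox4 genes, and the Mir196 genes, which target messengers of Hox genes. An expanded CAG repeat in HTT, which lengthens the polyglutamine stretch of huntingtin, causes Huntington's disease.

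Mir615 lies at chr15:103014910-103015001 on the plus strand (GRCm38) and is 92 bases long. It sits in an intron of Hoxc5, a homeobox transcription factor gene, on the same strand, 374 bases after the exon upstream and 226 bases before the exon downstream in the shorter of both annotated Hoxc5 transcripts. The longer Hoxc5 transcript also spans Mir196a-2, which ends 41475 bases before Mir615 starts. No gene is annotated on the opposite strand at Mir615. The mature sequences are shown because they identify this gene and set it apart from the other Hox microRNAs. They are from RefSeq (GRCm38.p6), run 5′ to 3′, and have the seed in capitals. Those of the other Hox microRNAs are shown for comparison, with 1 arm for each.
miR-615-5p: gGGGGUCCccggugcucggauc
miR-615-3p: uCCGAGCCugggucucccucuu
miR-10b-5p: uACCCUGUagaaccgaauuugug
miR-10a-5p: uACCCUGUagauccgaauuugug
miR-196a-5p: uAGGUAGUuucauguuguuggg
miR-196b-5p: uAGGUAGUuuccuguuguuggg

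Neither seed of miR-615 was found in any other of the 1738 mature mouse microRNAs of that table. Among 141767 GENCODE transcripts an exact copy of either mature sequence was found only in Mir615 itself. Near-identical copies, and copies outside annotated transcripts, were not searched. Both arms are rich in G and C, at 77.3% for the 5p arm and 63.6% for the 3p arm. The Mir10 genes share the seed ACCCUGU and have nearly identical 5p arms, which makes their separate counts less certain, and the Mir196 genes share the seed AGGUAGU. The deposited table gives 1 value per hairpin, so it does not show which arm of Mir615 was counted, nor does it separate the mature RNA from fragments of the surrounding Hoxc5 intron.

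Across the allelic series, Mir615 stood out in a single genotype and was highest there at the oldest age. The mean level was 21.6 ± 8.07 CPM in Q175 at 10m (SD, n = 8) and 2.37 ± 0.703 CPM in Q175 at 6m (SD, n = 8), against group means of 0.612 to 1.61 CPM in the 18 groups outside Q175. In Q175 at 2m it was 0.832 ± 0.488 CPM (SD, n = 8), within the range of the other genotypes. The 8 libraries of Q175 at 10m, which are 4.76% of all libraries, held 551 of the 1213 Mir615 counts in the series, or 45.4%.

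**Figure D1:**
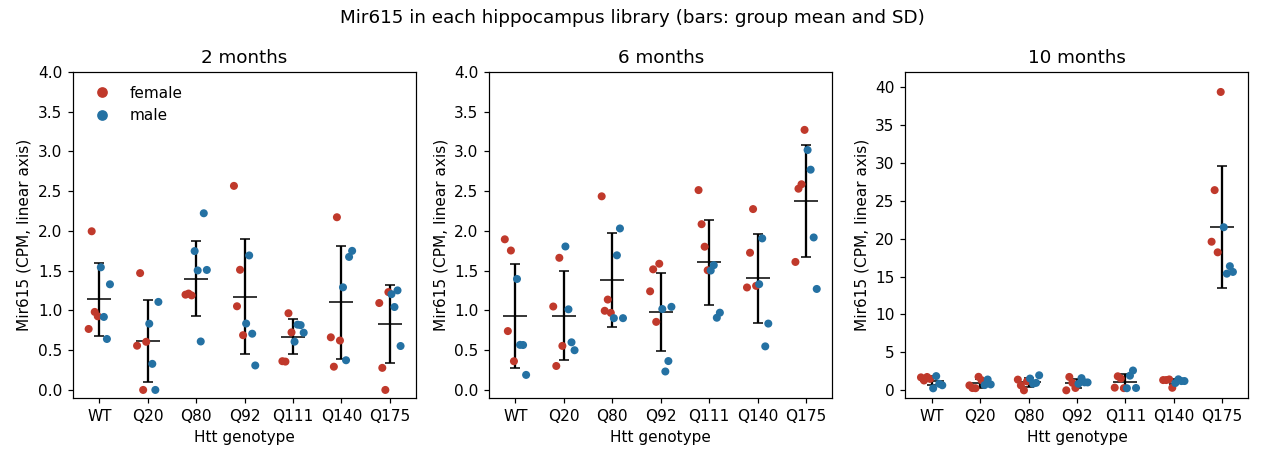
Mir615 level in CPM (linear axes, with a wider scale at 10 months) for each hippocampus library, by Htt genotype, at 2, 6 and 10 months. Points are libraries (red, female; blue, male) and bars are the group mean and SD; the 8 Q175 libraries at 10 months lie between 15.4 and 39.3 CPM and every other library of that age lies at 2.61 CPM or below.

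The individual Q175 libraries at 10m held whole-number Mir615 counts well above the counting floor. The females F1 to F4 had 62, 86, 54 and 115 counts, which correspond to 19.6, 26.4, 18.2 and 39.3 CPM. The males M1 to M4 had 74, 47, 61 and 52 counts, or 21.5, 15.4, 16.4 and 15.6 CPM. The lowest of these libraries was 5.89-fold above the highest of the 48 libraries of other genotypes at that age, so the groups did not overlap. Female F4 lay apart from the rest, and without it the Q175 mean was 19.0 ± 3.95 CPM (SD, n = 7).

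The controls at 10m had 1 to 7 counts per library. WT libraries ranged from 0.262 to 1.87 CPM with a median of 1.40, and Q20 libraries from 0.280 to 1.78 CPM with a median of 0.734. Pooling the 8 libraries of a group gave 21.3 CPM in Q175 (exact Poisson 95% interval 19.6 to 23.2, counting error only), 1.25 CPM in WT (0.870 to 1.74) and 0.905 CPM in Q20 (0.580 to 1.35). WT and Q20 thus overlapped, and neither came near Q175. Library totals overlapped as well, at 2795701 to 3764556 in Q175 and 2706633 to 4174657 in the controls.

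**Figure D2:**
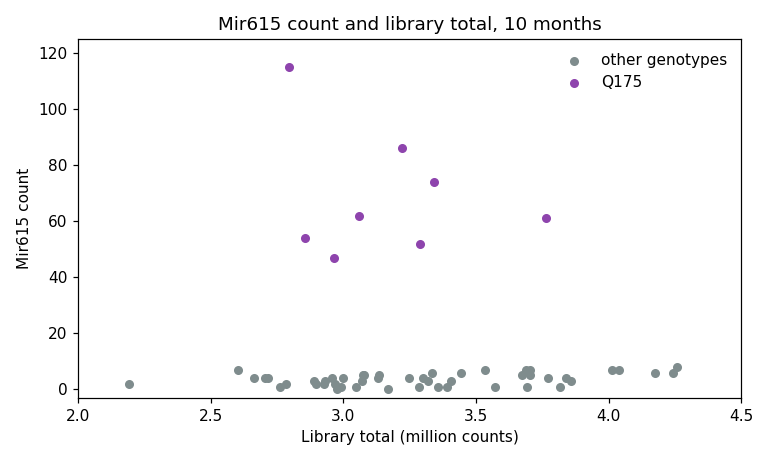
Mir615 count against library total for the 56 libraries at 10 months, Q175 in purple and the other 6 genotypes in grey. The Q175 libraries hold 47 to 115 counts and the others 0 to 8 at overlapping totals.

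The fitted difference of Q175 from the controls at 10m, with sex and batch as covariates, was 4.31 on the log2 scale (SE 0.24), or 19.9-fold, the largest log2 difference among the 470 transcripts tested. In that comparison 11.9% of the transcripts tested passed an adjusted p of 0.05, 26 higher and 30 lower in Q175, by edgeR's quasi-likelihood test with Benjamini-Hochberg adjustment, and DESeq2 called 77. Since this contrast was used to choose the gene, nothing is read from the place of Mir615 in it. Mir615 entered the test only through Q175. The filter asked for at least 2.96 CPM in 8 libraries, and 10 libraries reached it, 8 of them Q175 at 10m and 2 Q175 at 6m.

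The library names carry codes at 10m (L6, L7 and L8), whose meaning is not stated and which are treated as batches. Mean log2 CPM in Q175 exceeded that in controls by 5.10 in L6 (3 and 8 libraries), by 4.17 in L7 (3 and 6) and by 3.97 in L8 (2 and 2). The Q175 mean was 28.5 CPM in L6, 17.8 CPM in L7 and 16.8 CPM in L8, so the difference was present within each code and varied in size between codes. All 3 Q175 libraries of L6 were female and all 3 of L7 were male.

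Of the marker lists for other cell types, only that for neurons contained microRNAs that passed the test in Q175 at 10m. In that list 4 of 7 (Mir124a-1, Mir128-1, Mir128-2 and Mir138-2) fell and 0 rose, where 11.9% of all transcripts tested passed, 30 of 470 of them lower. The 7 entries are gene copies of Mir124a, Mir128 and Mir138, so they do not count as separate markers. How reads were shared between copies is not stated. The summed level of the list was 35369 to 43527 CPM in Q175 against 40793 to 47012 CPM in the 16 controls, so the ranges overlapped. None of the 8 choroid plexus and ciliated cell microRNAs tested passed, nor did any of the 3 of red blood cells, 2 of microglia and leukocytes, 3 of oligodendrocytes, 3 of endothelium and mural cells, 4 of mesenchyme and meninges, 5 of epithelium or 2 of striated muscle. The summed level of the mesenchyme and meninges list was 72.8 to 193 CPM in Q175 and 73.8 to 229 CPM in controls, and that of the choroid plexus list 6558 to 32009 CPM and 7250 to 36280 CPM. The microglia and leukocyte list held 5 symbols, of which only 2 were found, so those cells were covered only in part. Mir142b and Mir146 were tested but were not on that list. The striated muscle list held 6 symbols, of which 5 were found and 2 tested. No listed microRNA in the table was at 0 in all 8 Q175 libraries. The part of the neuronal microRNAs in the Mir615 difference was not tested.

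At 6m the level in Q175 was lower than at 10m and partly overlapped that of the other genotypes. The Q175 libraries held 7 to 17 counts, with the lowest at 1.27, the median at 2.56 and the highest at 3.27 CPM. WT libraries held 1 to 10 counts (0.189 to 1.89 CPM, median 0.654) and Q20 libraries 1 to 7 counts (0.301 to 1.804 CPM, median 0.806). Of the 8 Q175 libraries, 6 lay above every WT library, 5 lay above every one of the 48 libraries of other genotypes, and 22 of those 48 reached the lowest Q175 library.

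The fitted difference from the controls at 6m was 1.32 (SE 0.36) on the log2 scale, or 2.50-fold. In the same contrast 3.40% of the transcripts tested passed, and again nothing is read from this for Mir615. At this age library numbers fall into separate blocks, 1 with all WT and Q175 libraries and 1 with all other genotypes, so with a batch term the comparison is in effect with WT, within 1 block. There the difference of mean log2 CPM was 1.65 (8 and 8 libraries). The deposited RPKM values (counts scaled by transcript length and library size) cannot be set side by side across these blocks, because Mir615 was given 10.9 RPKM per CPM in the 16 libraries of the first block and 6.997 to 7.45 in the other 152. Within the first block the level was 26.3 ± 7.29 RPKM in Q175 and 10.2 ± 7.16 RPKM in WT (SD, n = 8 each).

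At 2m Mir615 was as low in Q175 as elsewhere. The Q175 libraries held 0 to 4 counts (median 1.07 CPM, highest 1.25 CPM), WT libraries 2 to 6 counts (0.641 to 2.00 CPM) and Q20 libraries 0 to 5 counts (0 to 1.47 CPM). Q175 female F3 had 0 counts, which allows a level of up to 1.03 CPM. The fitted difference was -0.07 (SE 0.49) on the log2 scale, which is within its error at so few counts per library. In this contrast edgeR called 0 of 470 transcripts (0% of those tested, with 8 at an unadjusted p under 0.05), and DESeq2 called 0. The Q175 mean was 2.85-fold higher at 6m than at 2m and 9.09-fold higher at 10m than at 6m. The batches used here were defined within each age, so no fit compared the ages with batch as a term. The code L6 occurs both in the 6m block with all Q175 libraries and at 10m, although whether it marks the same thing at both ages is not stated, and within it the Q175 mean was 2.37 CPM at 6m (8 libraries) and 28.5 CPM at 10m (3 libraries).

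The shorter expanded alleles showed no level comparable to that of Q175 at 10m. At 6m the levels partly overlapped, with Q111 at 0.908 to 2.51 CPM and Q175 at 1.27 to 3.27 CPM. Over the 3 ages, the differences of the shorter alleles from the controls ranged from -0.33 (SE 0.45) in Q111 at 2m to 0.72 (SE 0.41) in Q111 at 6m on the log2 scale. At 6m these alleles share a library block with Q20 and not with WT. With the batch term their 6m differences are therefore in effect from Q20, whereas that of Q175 is from WT. For Q140, the allele from which Q175 derives, the differences were 0.27 (SE 0.45) at 2m, 0.52 (SE 0.43) at 6m and 0.08 (SE 0.38) at 10m. Q140 libraries at 10m ran from 0.333 to 1.45 CPM, within the range of the controls. With CAG length as a number and Q175 left out, the slope per 100 repeats was 0.00 (SE 0.44) at 10m and 0.46 (SE 0.30) at 6m on the log2 scale, whereas with Q175 included it was 2.68 (SE 0.29) and 0.70 (SE 0.16). At 2m these slopes were 0.09 (SE 0.27) and -0.02 (SE 0.22). The slopes with Q175 at 10m therefore rest on that 1 line. With the batch term, the 6m slope without Q175 rests on Q20 and the longer alleles, since WT is then alone in its block.

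**Figure D3:**
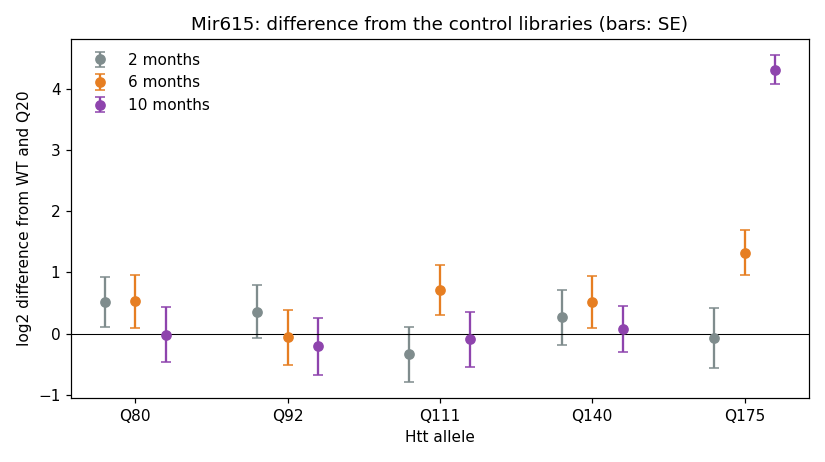
Fitted log2 difference of Mir615 between each expanded allele and the WT and Q20 controls at 2, 6 and 10 months, with bars of 1 SE. At 6 months, with the batch term, Q175 is in effect compared with WT and the other alleles with Q20. The Q175 points are -0.07, 1.32 and 4.31 and those of Q80, Q92, Q111 and Q140 lie between -0.33 and 0.72.

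When the 21 groups were ordered by mean level, only the first places were set apart. Q175 at 10m led and its range overlapped that of no other group. Q175 at 6m came next, 0.765 CPM above Q111 at 6m (1.61 ± 0.535 CPM, SD, n = 8), a gap just over the larger SD of the pair, although their ranges overlapped. All other neighbours in the order had overlapping ranges and gaps smaller than their SDs, from Q140 at 6m (1.40 ± 0.560 CPM, SD, n = 8) and Q80 at 2m (1.40 ± 0.473 CPM) down to Q111 at 2m (0.671 ± 0.218 CPM) and Q20 at 2m (0.612 ± 0.516 CPM).

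The spread between animals was set beside counting error. Outside Q175 the libraries held 0 to 10 Mir615 counts with a median of 4, and 4 of them held 0. The chi-square of the counts against library totals, per degree of freedom, averaged 1.10 over those 18 groups (0.153 to 2.54), where a value of 1 is what random counting alone gives on average. It was 0.914 in Q175 at 2m, 0.910 in Q175 at 6m and 9.81 in Q175 at 10m. At 10m the Q175 libraries thus differed from each other by more than counting error, up to 2.56-fold. Female F4 was the highest, and the other 7 libraries ran from 15.4 to 26.4 CPM. The chi-square ratio was not computed without F4. This ratio grows with the mean count at the same relative spread, so the groups with few counts could not have shown such an excess. The coefficient of variation of the level was 37.4% in Q175 at 10m and 31.9% to 84.2% in the groups outside Q175. These coefficients include counting error, which weighs more at few counts, so they do not compare the spread between animals.

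Sex was compared next, since it played no part in the choice of the gene. Over all libraries of the series, with group and batch in the fit, the female level was 1.12-fold the male level (log2 0.17, SE 0.12, 95% interval 0.949 to 1.33-fold), which did not pass edgeR's quasi-likelihood test (adjusted p = 0.687). The female mean was the higher in 11 of 21 groups. In that comparison 1.06% of the transcripts tested passed.

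Among the Q175 libraries at 10m the female mean was 25.9 ± 9.66 CPM and the male mean 17.2 ± 2.89 CPM (SD, n = 4 each), and the sexes overlapped, since male M1 exceeded females F1 and F3. The difference of 0.53 on the log2 scale did not pass an exact two-sided permutation test over the 70 splits of 4 against 4 libraries (p = 0.0857). The interaction of sex and Q175 at 10m was 0.31 (SE 0.63) on the log2 scale with edgeR (adjusted p = 0.953). In that test 0 of 470 transcripts passed (0%), with 30 at an unadjusted p under 0.05 and 0 called by DESeq2. The batch codes bear on this comparison, since L6 held only females and L7 only males of Q175. In L8, the code with both sexes, the female had 18.2 CPM and the male 15.4 CPM.

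Age was tested in the 18 groups of 8 libraries outside Q175. Relative to 2m, Mir615 was 1.16-fold at 6m (log2 0.21, SE 0.17, 95% interval 0.916 to 1.47-fold, edgeR adjusted p = 0.287) and 1.08-fold at 10m (log2 0.11, SE 0.18, 95% interval 0.850 to 1.37-fold, edgeR adjusted p = 0.683). Neither passed, in comparisons where 55.7% and 44.0% of the transcripts tested did. Mir615 entered these comparisons only through Q175, and the libraries used held 0 to 10 Mir615 counts, with a median of 4. The test could thus miss a change that it would find in a more abundant transcript. As defined here, every batch lay within a single age, so age and batch cannot be told apart in these values. Batch was therefore no term in this fit.

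Among the other microRNA genes of the Hox clusters, Mir10b was higher in Q175 at 10m, Mir10a did not pass the test and the Mir196 genes were near 0. Of these 5 genes, 2 were abundant enough to be tested. In Q175, 1 rose and 0 fell at 10m (11.9% of all transcripts tested passed), and 0 passed at 6m (3.40%) or 2m (0%), too few genes to describe the list as a group. Mir10b lies within the annotated spans of Hoxd3 and Hoxd4 on chromosome 2. It had 369 to 1173 CPM in Q175 at 10m (median 496), 25.4 to 256 in WT (median 45.4) and 17.8 to 180 in Q20 (median 42.4). The groups did not overlap, and the fitted difference was 3.27 on the log2 scale (SE 0.32, edgeR adjusted p = 8.73e-08). The list of Hox microRNAs was set with earlier results of these data known, so this p is not an independent test. Unlike Mir615, Mir10b was not above the controls at 6m, where its log2 difference was -0.05 (SE 0.33, edgeR adjusted p = 1).

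Mir10a, which lies in the Hoxb cluster on chromosome 11, had 163 to 404 CPM in Q175 at 10m (median 247), 143 to 327 in WT (median 249) and 149 to 356 in Q20 (median 222). These ranges overlapped throughout, and the log2 difference was 0.06 (SE 0.14, edgeR adjusted p = 0.835). Mir196a-1 in the Hoxb cluster, Mir196b in the Hoxa cluster and Mir196a-2 had too few counts to be tested, with 8, 25 and 18 counts summed over all libraries of the series. Mir196a-2, the neighbour of Mir615 within the long Hoxc5 transcript, held 4 counts in total in the 8 Q175 libraries at 10m, in 2 of them, where Mir615 held 551.

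**Figure D4:**
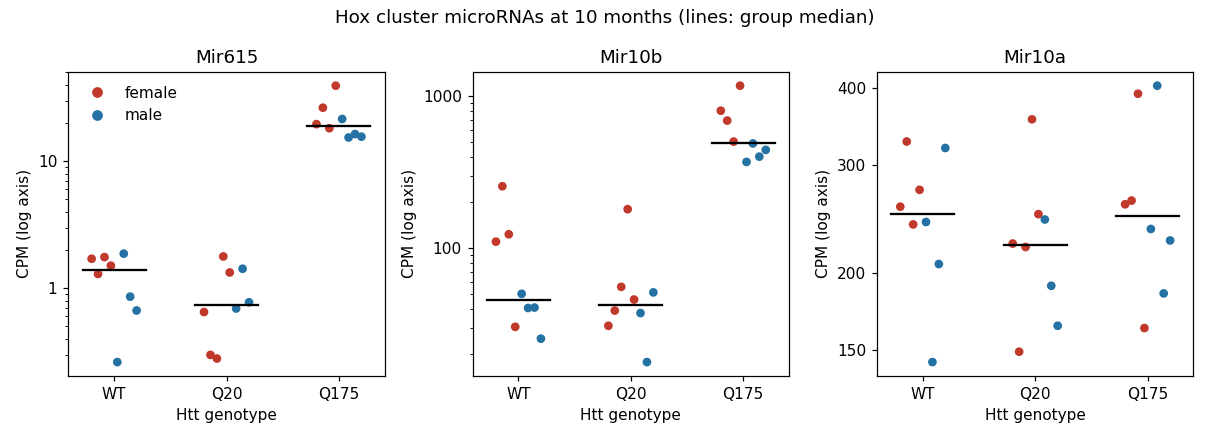
Levels of Mir615, Mir10b and Mir10a in CPM (log axes) in the WT, Q20 and Q175 libraries at 10 months, with 8 libraries a group and lines at the group medians (red, female; blue, male). Q175 lies above the controls for Mir615 and Mir10b and overlaps them for Mir10a, whose medians are 249, 222 and 247 CPM.

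The microRNAs whose group means were most like those of Mir615 were found by Pearson's r of log2 mean CPM over the 21 groups, out of 349 ranked and as a description. They were Mir483 (r = 0.90), a microRNA inside the growth factor gene Igf2, Mir10b (0.72), Mir203 (0.65), an epithelial microRNA, Mir184 (0.65) and Mir669c (0.64). Without Q175 at 10m the values over the remaining 20 groups were 0.15, -0.17, 0.34, 0.14 and 0.37, so the likeness came mostly from that 1 group. The fitted differences of Q175 from controls at 10m were 2.63 (SE 0.23) for Mir483, 0.44 (SE 0.09) for Mir203, 0.54 (SE 0.15) for Mir184 and 0.78 (SE 0.12) for Mir669c on the log2 scale, all smaller than that of Mir615. For Mir483 the log2 difference was 0.70 (SE 0.18) at 6m and -0.30 (SE 0.25) at 2m. A higher level in Q175 at 6m was thus not particular to Mir615.

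Whether these microRNAs varied together from animal to animal was examined among the 8 Q175 libraries at 10m, for 4 relations in all. Mir615 was correlated with Mir483 (Pearson's r = 0.84, exact permutation p = 0.0116, adjusted p = 0.0427; Spearman's rho = 0.55, p = 0.171, adjusted p = 0.432) and with Mir10b (r = 0.78, exact permutation p = 0.0213, adjusted p = 0.0427; rho = 0.50, p = 0.216, adjusted p = 0.432). With Mir10a r was -0.51 (exact permutation p = 0.187, adjusted p = 0.249; rho = -0.36, p = 0.389, adjusted p = 0.519), and with the library total it was -0.42 (exact permutation p = 0.311, adjusted p = 0.311; rho = -0.24, p = 0.582, adjusted p = 0.582). Without the libraries farthest from the median Mir615 level, females F2 and F4, r fell to 0.08 for Mir483 and 0.13 for Mir10b over the other 6 libraries (exact permutation p = 0.846 and 0.836, adjusted p = 0.894 for both). The relations thus rest on those libraries, both female and both coded L6, and with 3, 3 and 2 libraries a code they could not be computed within batches.

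**Figure D5:**
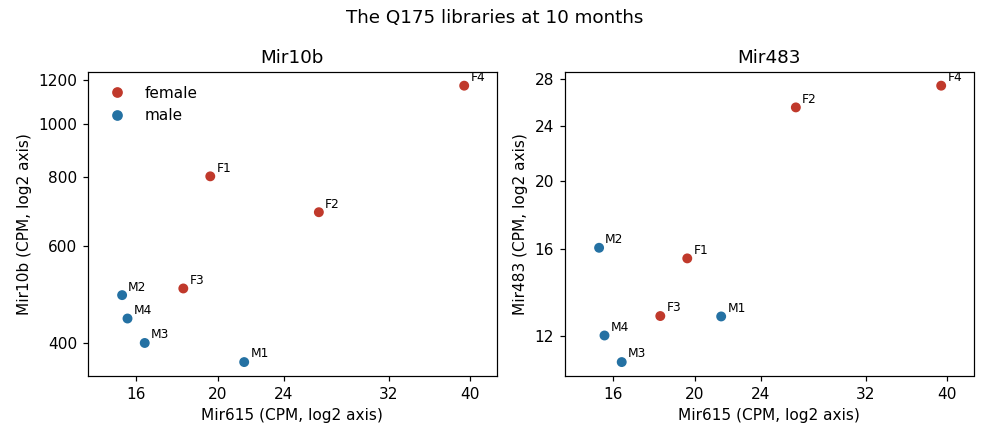
Mir615 level against Mir10b (left) and Mir483 (right) in the 8 Q175 libraries at 10 months, in CPM on log2 axes, each point labelled by replicate (red, female; blue, male). Females F2 and F4, at 26.4 and 39.3 CPM of Mir615, lie apart from the other 6 libraries, which show r = 0.13 and 0.08.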

How the data were processed

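The authors prepared RNA with the miRNeasy kit, sequenced strand-specific single-end reads, clipped them, aligned them to mm10 with STAR at default settings and counted them with HTSeq; the submitters' processing notes name CASAVA 1.8.2. How reads with several matches were treated, and whether strand was used in counting, are not given in the sources used here. In the files, the deposited count table holds estimated counts, rounded here to whole numbers (Mir615 values were whole in all libraries, within 0.001), and the deposited RPKM table served as an alternative, as log2(RPKM + 1). Of 1626 transcripts 1228 matched GENCODE M21. CPM used TMM library sizes. Tests were edgeR 4.0.16 quasi-likelihood fits (R 4.3.3) on the 470 transcripts kept by filterByExpr with a minimum count of 10, with sex and batch as covariates as in the study; calls had a Benjamini-Hochberg adjusted p under 0.05. Batch came from the library names (at 6 months Q92 F2, which carries another code, was kept in its number block). DESeq2 1.42.0 was an alternative. The edgeR functions were tested on simulated data. Members and lists were chosen with earlier results of these data known. Named genes were Mir615, the other Hox microRNAs, the 5 microRNAs most like Mir615 and Mir483. No outlying counts were replaced. Each library is taken as 1 animal; counting intervals cover counting error only.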

Additional observations from a re-analysis of the deposited data

Results flagged for a closer look

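Of the values examined, 4 lay further from their group than Dixon's 95% limit for 8 samples, among 27 groups examined. That limit flags about 1 in 20 groups only where values are normally distributed. Low counts and skewed levels on the linear CPM scale need not be, so the number flagged is not read against chance. For Mir615 these were Q175 10m F4, at 39.3 CPM (115 counts) with the next library at 26.4 CPM, and Q140 10m F4, at 0.333 CPM (1 count) with the next library at 0.961 CPM. Without Q175 F4 the fitted difference of Q175 from controls at 10m was 4.15 on the log2 scale, against 4.31 with it. For Mir10b the values were WT 10m F2, at 256 CPM with the next at 123 CPM, and Q20 10m F4, at 180 CPM with the next at 55.6 CPM. All 4 libraries are female.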

How the results depend on the processing

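The Mir615 difference of Q175 from controls at 10m stayed between 3.97 and 5.10 on the log2 scale over 37 alternatives, the highest of them within code L6 (5.10), with 4.02 against WT alone, 4.70 against Q20 alone, 4.61 in females, 4.48 in males and 4.38 with the replicate number as a block. At 6m it was 0.999 (females) to 1.74 (RPKM), and 1.38 with the replicate block. At 2m, where counts were 0 to 6 in these groups, it ran from -0.52 to 0.41 and was -0.03 with the block. Leaving out 1 library at a time gave 4.15 to 4.45 at 10m, 1.16 to 1.54 at 6m and -0.22 to 0.14 at 2m, and 0.07 to 0.62 for the interaction of sex and Q175. That interaction was 0.51 with the block and was not called under any alternative (p or adjusted p 0.0857 to 1). Neither the sex difference (0.10 to 0.23, adjusted p 0.549 to 0.888, block 0.17) nor the age differences (0.04 to 0.35, adjusted p 0.0954 to 0.869, block 0.22 at 6m; 0.01 to 0.21, adjusted p 0.433 to 0.978, block 0.11 at 10m) were called under any alternative. Without the 2 libraries farthest from the median, r with Mir10b was 0.13 and with Mir483 it was 0.0818, neither called; without TMM factors they were 0.79 and 0.85. The number of transcripts called at 10m was 56, against 37 with no low-count filter and 36 with WT alone. At 6m it was 16, against 7 with no low-count filter, 138 with no batch term and 223 with Q20 alone and no batch term, an alternative chosen after seeing the data because the planned fit with a batch term could not be made; these last contrasts also compare the library blocks. With the block the counts were 48, 11 and 0. Numbers are only names here: same-numbered libraries correlated at -0.26 to 0.41. The 5 libraries with 0 counts allow levels of up to 0.931 to 1.22 CPM.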
